A study of Homo sapiens with 24 samples.

Results

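The transcript levels of 10 genes for proteins of the centromere and the kinetochore were followed through the cell cycle of K562, an established human cell line from a leukaemia, which grows in suspension and has erythroid features. The genes were taken from a list of symbols, CENPA (ENSG00000115163), CENPE (ENSG00000138778), CENPF (ENSG00000117724), CENPK (ENSG00000123219), CENPM (ENSG00000100162), CENPN (ENSG00000166451), CENPU (ENSG00000151725), CENPW (ENSG00000203760), NDC80 (ENSG00000080986) and NUF2 (ENSG00000143228), which were mapped to the gene identifiers of the expression table. All 10 were found among its 12285 genes. A synchronous population was obtained by centrifugal elutriation, which separates cells of different size, and the cells were grown in RPMI medium with 10% bovine calf serum and P/S and sampled every 2 h from 0 h to 46 h for RNA sequencing. Each of the 24 time points is 1 library of total RNA from the same untreated line, so time was the only variable and no value has a replicate. The study examined time points at which the levels of many genes depart from those at neighbouring times.

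The centromere is the part of a chromosome on which the kinetochore is built, the protein assembly that holds spindle microtubules during mitosis. Its base is nucleosomes with the histone variant encoded by CENPA, on which the constitutive centromere-associated network (CCAN) sits through the cell cycle. CENPK, CENPM, CENPN, CENPU and CENPW encode subunits of this inner layer. NDC80 and NUF2 encode the paired coiled-coil proteins that bind microtubules in the outer layer, CENPE encodes a kinesin motor that carries chromosomes along microtubules, and CENPF encodes a very large coiled-coil protein that joins the outer kinetochore late in the cycle. Many genes for mitotic proteins are known to be transcribed mainly in G2 and M phase, through promoters with a cell cycle genes homology region (CHR) and CCAAT boxes, and many genes for DNA replication in late G1 and S phase, through E2F sites.

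Values are FPKM, fragment counts scaled for transcript length and for the size of the library, so that levels can be compared between genes. The libraries at 16 h and 18 h stood apart from the rest. The study identified these 2 hours as irregular and proposes that such time points are likely technical in origin. Their summed FPKM was 566247 and 591309, against 456791 to 520382 at the other hours, and 102 and 115 genes were listed at 0, against at most 58 elsewhere. The tests of the 10 genes are therefore given with all 24 time points and with the 22 that leave out 16 h and 18 h. All 11 erythroid markers examined were in the table, among them the fetal globin gene HBG2 at 533 to 3141 FPKM. Of 10 fibroblast and lymphoid markers, 3 were in the table, among them COL1A2 at 1.70 to 3.94 FPKM and CD3D at 4.20 to 12.9 FPKM. In a bulk sample, more cells in a phase and more RNA per cell cannot be told apart.

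The promoters are shown first, since 5 of the genes had a common course in time (described further on) and their start regions can be read beside those of the others. RefSeq windows of 300 bases (250 before and 50 after the start, build GRCh38.p14) were available for 9 of the genes, and CENPM is only named. Exact letters were searched on both strands, TTTGAA or TTTAAA for CHR, CCAAT for the CCAAT box, and TTTCCCGC, TTTGGCGC, TTTCGCGC or TTTGCCGC for E2F. The 100 bases before the start are printed 5′ to 3′ on the strand of the gene for 7 of the genes, those with a match in that stretch and NDC80 as one without, with the matched letters in capitals (ATTGG is CCAAT on the other strand). CENPA lies on the plus strand at chr2:26785956-26786055, CENPE on the minus strand at chr4:103198344-103198443, CENPF on the plus strand at chr1:214603095-214603194, CENPK on the minus strand at chr5:65563169-65563268, CENPU on the minus strand at chr4:184734097-184734196, CENPN on the plus strand at chr16:81007114-81007213 and NDC80 on the plus strand at chr18:2571457-2571556.
CENPA: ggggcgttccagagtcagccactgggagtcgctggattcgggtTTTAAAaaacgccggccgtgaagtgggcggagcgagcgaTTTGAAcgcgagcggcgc
CENPE: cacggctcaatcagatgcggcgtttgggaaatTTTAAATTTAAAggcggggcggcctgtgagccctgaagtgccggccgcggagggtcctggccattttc
CENPF: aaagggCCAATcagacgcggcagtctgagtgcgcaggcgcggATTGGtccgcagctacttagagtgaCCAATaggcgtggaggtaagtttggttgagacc
CENPK: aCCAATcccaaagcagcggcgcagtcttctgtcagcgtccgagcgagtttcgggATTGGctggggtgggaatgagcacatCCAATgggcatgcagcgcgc
CENPU: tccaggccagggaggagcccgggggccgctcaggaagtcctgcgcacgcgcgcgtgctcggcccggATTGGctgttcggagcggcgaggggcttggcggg
CENPN: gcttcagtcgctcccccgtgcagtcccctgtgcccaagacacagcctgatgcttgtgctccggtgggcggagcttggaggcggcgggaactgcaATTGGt
NDC80: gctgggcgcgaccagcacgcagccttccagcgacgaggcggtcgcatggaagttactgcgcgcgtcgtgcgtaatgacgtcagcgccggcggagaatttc

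CHR letters were present in the windows of CENPA, NDC80, NUF2, CENPE and CENPF, and among the inner genes with a window only in that of CENPN. These 6 of 9 windows compare with 16.6% of the 12888 windows of genes in the expression table and 24.0% of all 35116 windows. In the printed stretch, CENPA has TTTAAA at -57 to -52 and TTTGAA at -18 to -13 from the start, and CENPE has TTTAAA in tandem at -68 to -57. CENPF has TTTAAA just upstream of its printed stretch, at -115 to -110. In NDC80, NUF2 and CENPN the CHR letters lie at the start or after it, and NDC80 and NUF2 have no other match. CCAAT was found in 6 of the 9 windows, with 4 copies in CENPF, 3 in CENPK, 2 each in CENPA and CENPW and 1 each in CENPU and CENPN, against 35.6% of the windows of genes in the table. CHR and CCAAT letters occurred together in CENPA, CENPF and CENPN, 3 of 9, against 6.60% of those windows. E2F letters were found in CENPA, at -232 to -225, and in CENPU, at -211 to -204, against 5.22%. A match describes the letters of the window and not a bound site, and no test was made on these counts.

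**Figure D1:**
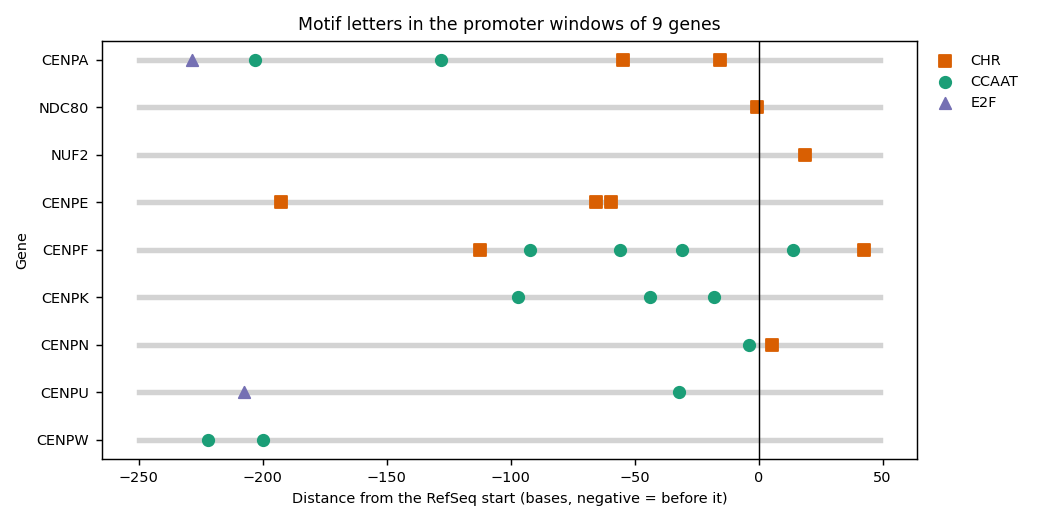
Positions of CHR, CCAAT and E2F letters along the promoter windows of 9 genes, with the horizontal axis giving the distance in bases from the RefSeq start (vertical line) and each row 1 gene. CHR letters (squares) appear in CENPA, NDC80, NUF2, CENPE, CENPF and CENPN, and CENPF carries 4 CCAAT boxes (circles).

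The inner kinetochore genes other than CENPM had the highest mean levels of the 10. Mean levels over 22 time points were 70.8 ± 8.22 FPKM for CENPW, 64.9 ± 5.78 for CENPN, 60.1 ± 7.55 for CENPU, 58.2 ± 3.77 for CENPK and 52.2 ± 12.0 for CENPF (SD over time points, n = 22). NUF2 at 35.5 ± 3.91 FPKM and NDC80 at 34.9 ± 6.81 FPKM came next, followed by CENPA at 21.7 ± 7.54, CENPM at 19.8 ± 2.84 and CENPE at 15.5 ± 4.88. Neighbours in this order differed by less than the larger SD of the pair, except at the steps from CENPF down to NUF2 and from NDC80 down to CENPA. This spread holds the time course itself, since there were no replicates. Over all 24 time points the means ran from 17.7 FPKM for CENPE to 70.2 FPKM for CENPW, and the SD was largest for CENPF, at 24.8 FPKM. NUF2 and NDC80, whose proteins pair with each other, were close at every hour. The ratio of NUF2 to NDC80 was 1.05 to 1.28 from 0 h to 18 h and 0.878 to 1.03 from 20 h to 46 h. The ratio of CENPF to CENPE ran from 2.54 to 4.52 over all 24 hours.

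CENPA, NDC80, NUF2, CENPE and CENPF shared a first-day course, with their lowest levels at 2 h or 4 h and high levels at 20 h and 22 h. CENPA had 6.73 FPKM at 2 h, a median of 21.9 FPKM and 34.8 FPKM at 20 h, its highest value. Between 2 h and 14 h it was higher at every successive time point, reaching 21.8 FPKM. The 5.18-fold span of CENPA over 22 time points was the widest of the 10 genes.

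CENPE, the motor gene, had 6.14 FPKM at 4 h, a median of 17.8 FPKM and 46.8 FPKM at 18 h. Without 16 h and 18 h its highest level was 22.1 FPKM at 38 h, a 3.60-fold span. CENPF had 25.3 FPKM at 4 h, a median of 55.3 FPKM and 142 FPKM at 18 h. Its highest level at any hour other than 16 h and 18 h was 76.6 FPKM at 22 h, a 3.02-fold span. For both genes the 16 h and 18 h libraries thus lay above all other time points.

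NDC80 had 21.7 FPKM at 4 h, a median of 36.9 FPKM and 58.8 FPKM at 18 h, or 46.0 FPKM at 20 h when the 2 libraries are left out. NUF2 had 27.4 FPKM at 2 h, a median of 35.7 FPKM and 69.5 FPKM at 18 h, or 43.5 FPKM at 46 h without them. All 5 genes were well above their minimum at 0 h, where CENPF had 67.6 FPKM and NUF2 40.4 FPKM, and lower at 2 h. At 20 h CENPF had 61.1 FPKM and NUF2 40.4 FPKM, so that both began near or above that level. CENPE had 18.2 FPKM at 0 h and 20.3 FPKM at 20 h. CENPA (16.2 and 34.8 FPKM) and NDC80 (32.7 and 46.0 FPKM) began lower. The cyclin gene CCNB1, a reference for G2 and M phase, had the same early minimum and late maximum, with 65.0 FPKM at 4 h and 237 FPKM at 22 h.

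The inner kinetochore genes followed no course common to all of them, though CENPM, CENPN and CENPW were partly alike over 22 time points (described further on). CENPU had its early high when the outer genes were low, with 78.8 FPKM at 2 h and 73.8 FPKM at 4 h, and 50.4 FPKM at 20 h, its lowest value. Its median was 58.8 FPKM, and its highest value was 85.1 FPKM at 18 h. These early hours were also those at which the G1 and S phase references were highest, of which the cyclin gene CCNE2 had 38.9 FPKM at 2 h and the replication helicase gene MCM5 120.1 FPKM at 4 h. CENPK was the steadiest gene, between 51.6 and 65.1 FPKM over 22 time points, a 1.26-fold span, with 96.2 FPKM at 16 h and 105 FPKM at 18 h. CENPN lay between 55.6 and 74.0 FPKM over the same 22 time points, and had 80.4 and 84.3 FPKM at 16 h and 18 h.

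CENPW, which pairs with CENPT in a histone-fold complex, lay between 58.3 and 84.3 FPKM over all 24 time points, with a median of 69.8 FPKM. CENPM had a median of 19.5 FPKM, with 14.2 FPKM at 32 h and 26.6 FPKM at 30 h as its extremes over 22 time points. At 16 h it had 5.59 FPKM and at 18 h 5.19 FPKM, lower than at any other hour. The inner genes were each lower at 32 h than at 30 h, CENPM by the largest factor and CENPK least, with 61.5 and 61.8 FPKM. CENPU had 53.3 FPKM at 32 h and 67.5 FPKM at 30 h. CENPF and NUF2 were also lower at 32 h, and CENPA, NDC80 and CENPE higher. The study describes 32 h as a mildly irregular time point.

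**Figure D2:**
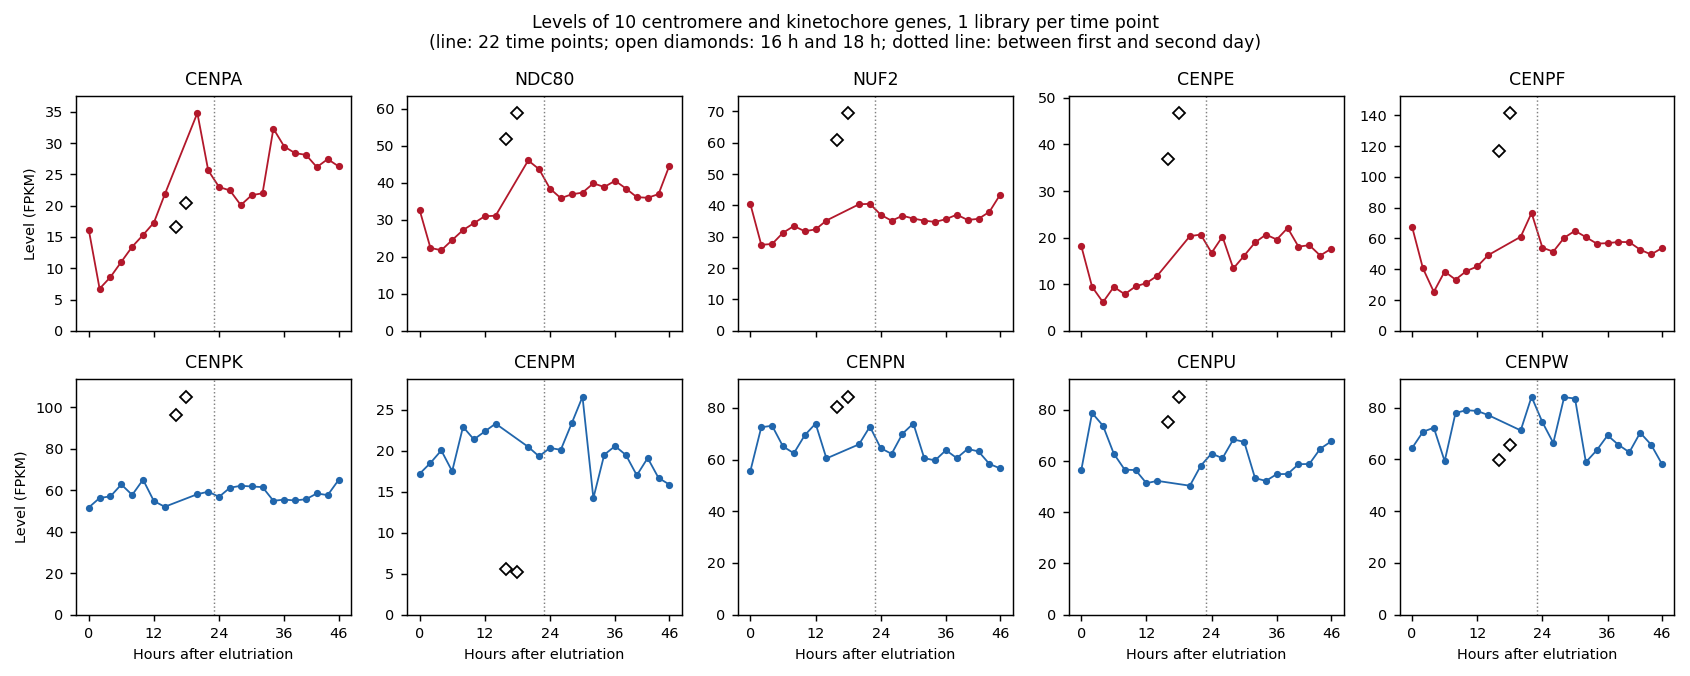
Level in FPKM of each of the 10 genes (1 panel per gene, vertical axes starting at 0) against hours after elutriation, with 1 library per time point. Filled points and lines leave out 16 h and 18 h, which are open diamonds, and CENPA, NDC80, NUF2, CENPE and CENPF (upper panels) are lowest at 2 h or 4 h.

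To ask which of the genes had a 24 h rhythm, the JTK statistic, a rank correlation with a cosine of 24 h, was given a permutation p over orderings of the time points and adjusted by Benjamini-Hochberg over all 12285 genes. The permutation takes the time points as exchangeable, so that slow drift over neighbouring hours also lowers the p. Every p rests on single libraries, and without replicates the spread between libraries of the same hour is unknown. NUF2 was called, with its peak at 20 h and an adjusted permutation p of 0.0344, and it was the only one, 1 of 10 against 13% of all genes. Without 16 h and 18 h, 3 of 10 were called, against 14.7% of all genes. These were NUF2 with a peak at 22 h (adjusted permutation p = 0.0419), CENPU with a peak at 2 h (0.0377) and CENPA with a peak at 16 h (0.0459). The NUF2 call was lost when 6 h, 18 h or 24 h was left out alone, with adjusted permutation p of 0.0503, 0.0544 and 0.0528.

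Of the genes not called by JTK over 24 time points, CENPE was nearest to the threshold, with a peak at 18 h and an adjusted permutation p of 0.0716 (0.0423 without 32 h). NDC80 followed at 0.127 with a peak at 18 h, then CENPA and CENPU at 0.165 each, CENPM at 0.226 and CENPF at 0.313. CENPW at 0.583, CENPK at 0.838 and CENPN at 0.978 were farthest from it. Among the references, the adjusted permutation p was 0.00637 for CCNE2, 0.0379 for the mitotic kinase gene CDK1, 0.0958 for the cyclin gene CCNA2 and 0.139 for CCNB1. MCM5 had 0.00259, the smallest that these permutations reached.

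The size of the 24 h rhythm was taken from a cosine and sine fitted by limma to log2(FPKM + 1), as the fitted difference between peak and trough. CENPE had the largest size over 24 time points, 1.06 ± 0.28 on the log2 scale (SE), with a peak at 18.0 h and a limma adjusted p of 0.0448, and was the only gene of the 10 called, against 9.16% of all genes. Without 16 h and 18 h its size was 0.72 ± 0.26 and its limma adjusted p 0.109. CENPA then had the largest size, 1.07 ± 0.27 with a peak at 16.8 h (limma adjusted p = 0.0290), against 0.84 ± 0.26 and 0.0873 over 24 time points. CENPU, with a size of 0.33 ± 0.08 and a peak at 2.04 h, was also called (limma adjusted p = 0.0211), against 0.24 ± 0.11 and 0.265 over 24 time points. These 2 of 10 compare with 17.1% of all genes.

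The sizes over 24 and 22 time points were 0.75 ± 0.25 and 0.42 ± 0.20 for CENPF, 0.57 ± 0.16 and 0.42 ± 0.16 for NDC80, and 0.49 ± 0.14 and 0.27 ± 0.08 for NUF2. Neither fit called these 3 genes, with limma adjusted p between 0.0545 and 0.25. CENPM had a size of 0.65 ± 0.26 over 24 time points and 0.18 ± 0.11 without 16 h and 18 h. CENPK, CENPN and CENPW had sizes of at most 0.17 in either fit. The median size over the 10 genes was 0.53 over 24 time points and 0.30 over 22, against 0.26 and 0.22 over all genes.

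The likeness of the courses was described by Pearson correlation of log2(FPKM + 1) between genes. Time points share their order and each library is common to all genes, so no p was given. Over 22 time points the 10 pairs among CENPA, NDC80, NUF2, CENPE and CENPF had a median r of 0.841, from 0.720 for CENPA with CENPF to 0.926 for CENPA with NDC80. This set joins CENPA to the outer genes by their shared course in these same values, so r describes the set and does not test it. The 10 pairs among the inner genes had a median r of 0.269. CENPM with CENPW was the highest of these, at 0.836, CENPN with CENPW had 0.686 and CENPM with CENPN 0.531. Over 24 time points these were 0.552, 0.339 and -0.432. These genes were all lower at 32 h, which the study describes as mildly irregular, than at 30 h. No r without 32 h is given. The 25 pairs between the 2 sets had a median r of -0.182, and CENPA with CENPU was lowest, at -0.566.

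With 16 h and 18 h included, the median r was 0.859 within the first set, 0.116 within the inner genes and 0.0367 between the sets. Single pairs moved much more. CENPA with NUF2 had 0.781 over 22 time points and 0.360 over 24, CENPK with NUF2 had 0.0426 and 0.799, and CENPK with CENPM had -0.0759 and -0.873. The pairs among NDC80, NUF2, CENPE and CENPF had r of at least 0.857 over 24 time points and of at least 0.763 over 22.

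**Figure D3:**
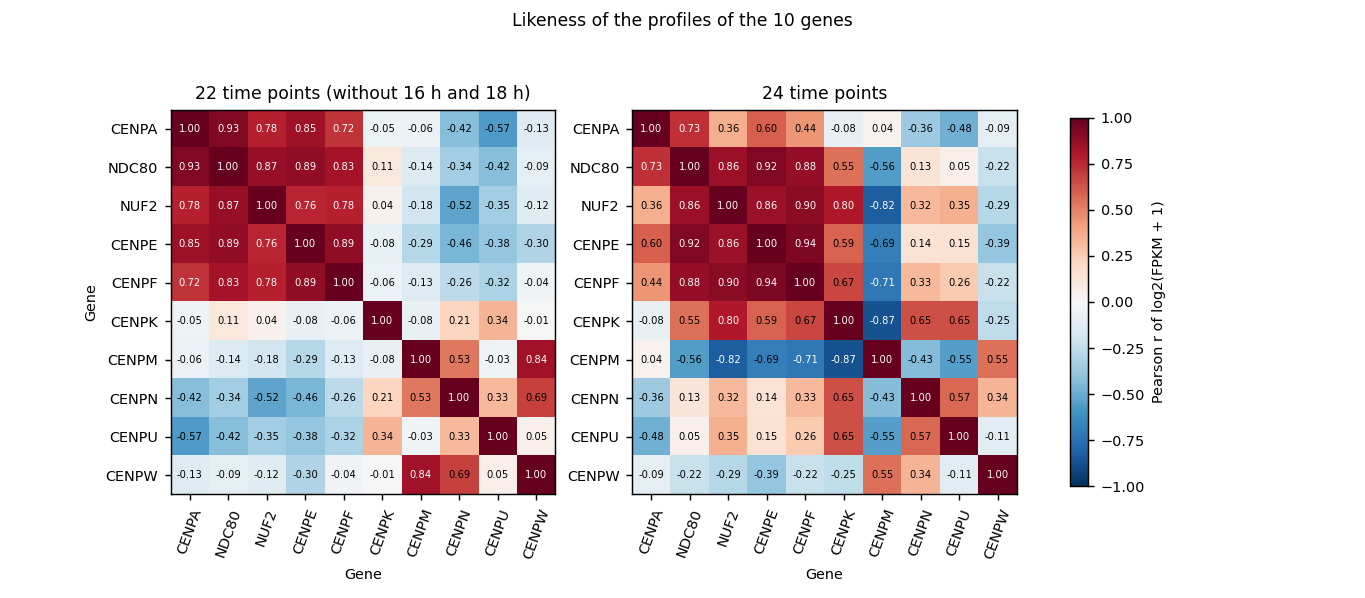
Pearson r of log2(FPKM + 1) between the 10 genes over 22 time points (left) and over all 24 (right), with genes on both axes and the colour scale running from -1 to 1. The block of CENPA, NDC80, NUF2, CENPE and CENPF at the upper left has r of 0.720 to 0.926 over 22 time points.

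The 3 genes most like each of the 10 were then taken from all genes with a symbol whose mean reached 10 FPKM, over 22 time points. The genes nearest CENPA were KIF14 (r = 0.968), GTSE1 (0.953) and KNSTRN (0.952), which encode a mitotic kinesin, a G2 and S phase protein and a kinetochore adaptor. NDC80 was most like ASPM (0.953), PSRC1 (0.951) and TTK (0.948), of which ASPM encodes a spindle pole protein and TTK the checkpoint kinase of the kinetochore. NUF2 was most like PMAIP1 (0.902), SCAND3 (0.884) and NDC80 (0.873), its own partner.

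CENPE and CENPF shared HMMR, a spindle assembly gene, as their nearest gene, with r of 0.966 and 0.941. For CENPE it was followed by CDC25B (0.945), the gene of a phosphatase that activates CDK1, and KIF20A (0.940), the gene of a kinesin of cytokinesis. For CENPF it was followed by DLGAP5 (0.927), a gene of a spindle microtubule protein, and PKP4 (0.926).

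CENPU was most like HELLS (0.916), MCM3 (0.850) and RECQL (0.839), which encode a chromatin remodeller, a subunit of the replication helicase and a DNA helicase. CENPK had lower values, 0.731 with HAT1, a histone acetyltransferase gene, 0.683 with POLA1, the gene of a replicative polymerase, and 0.681 with FAM234A. CENPM was nearest to PSMB3 (0.895), POP5 (0.888) and ATP5ME (0.884), CENPW to RBX1 (0.924), PSMB3 (0.917) and SDHC (0.906), and CENPN to CYP20A1 (0.859), SNX11 (0.787) and E2F6 (0.785). These lists depended on the 2 libraries, since 10 of the 30 neighbours were also among the 3 nearest when all 24 time points were used.

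The second day was compared with the first at matched hours in 12 pairs of time points 24 h apart, with limma and the hour as a block. The pairs are successive samples of 1 series and not replicates. The limma fits, here and for the rhythm, take them as independent, so neither SE nor p allows for drift over neighbouring hours. CENPA was higher on the second day in 11 of 12 pairs, by 0.64 ± 0.14 on the log2 scale (SE, limma adjusted p = 0.00684). Its level on the second day ran from 20.1 FPKM at 28 h to 32.3 FPKM at 34 h, so that every value was above all first-day values from 0 h to 12 h. This was 1 of 10 genes higher, against 9.49% of all genes. By limma 0 of 10 were lower, against 5.18% of all genes. The nearest was CENPN, at -0.14 ± 0.06 with a limma p of 0.0473 before and 0.159 after adjustment, the only one of the 10 lower at an unadjusted p of 0.05 or below. Without the pairs of 16 h and 18 h CENPA differed by 0.66 ± 0.15 (limma adjusted p = 0.00979), and without those of 0 h and 2 h by 0.56 (0.0143).

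Without the pairs of 16 h and 18 h, NDC80 and CENPE were also higher on the second day. NDC80 was higher in 9 of 10 pairs, by 0.35 ± 0.09 (limma adjusted p = 0.0155), against 0.20 ± 0.12 and 0.307 over 12 pairs. CENPE was higher in 7 of 10 pairs, by 0.60 ± 0.16 (limma adjusted p = 0.0182), against 0.31 ± 0.22 and 0.357 over 12 pairs. With CENPA this made 3 of 10 higher, against 12.6% of all genes, and 0 of 10 lower by limma, against 7.02%. CENPF differed by 0.32 ± 0.15 over these 10 pairs (limma adjusted p = 0.147) and NUF2 by 0.12 ± 0.05 (0.128). CENPK, CENPM, CENPN, CENPU and CENPW differed by at most 0.09 in size over them, and by at most 0.22 over all 12 pairs.

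The span of levels of CENPA and the outer genes was narrower on the second day. NDC80 ran from 21.7 to 46.0 FPKM on the first day without 16 h and 18 h, a 2.12-fold span, and from 35.8 to 44.6 FPKM on the second, a 1.25-fold span. CENPF spanned 3.02-fold on the first day and 1.31-fold on the second, CENPE 3.37-fold and 1.65-fold, NUF2 1.48-fold and 1.25-fold, and CENPA 5.18-fold and 1.61-fold. With 16 h and 18 h included the first-day spans were 2.70-fold for NDC80, 5.59-fold for CENPF, 7.62-fold for CENPE, 2.53-fold for NUF2 and 5.18-fold for CENPA. The rhythm was compared between the days as an interaction of day with the cosine and sine in limma. This responds to a change of size or of peak time, and no test of the size alone was made. Its p also takes successive time points as independent. The interaction was called for NDC80, CENPF and CENPE, 3 of 10 against 5.82% of all genes.

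The fitted size of NDC80 was 1.14 on the first day and 0.013 on the second (limma adjusted p of the interaction = 0.00683). Without 16 h and 18 h the sizes were 0.93 and 0.013 (0.0170). For CENPF the sizes were 1.71 and 0.23 (limma adjusted p = 0.00704), or 1.17 and 0.23 without the 2 libraries (0.00599). For CENPE they were 2.03 and 0.29 (limma adjusted p = 0.0138), or 1.41 and 0.29 without them (0.00923). These 3 calls were kept when each of the 24 time points was left out in turn.

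CENPA was called only without 16 h and 18 h, with sizes of 1.82 and 0.45 (limma adjusted p = 0.0232), against 1.30 and 0.45 over 24 time points (0.135). That made 4 of 10, against 4.84% of all genes. NUF2, with 0.89 and 0.14, had a limma adjusted p of 0.0618, which was 0.0392 without 6 h, 0.0197 without 14 h, 0.0198 without 20 h and 0.217 without 16 h and 18 h. The inner genes had sizes of 0.087 to 1.02 on the first day and 0.15 to 0.30 on the second, and none was called by limma at an adjusted or unadjusted p of 0.05 or below over 24 time points. Without 16 h and 18 h, CENPU had an unadjusted limma p of 0.0267. The interaction was also called for the references CCNB1 (limma adjusted p = 0.0236), CCNA2 (0.00979) and MCM5 (0.0392) over 24 time points. Each had the smaller fitted size on the second day. MCM5 was not called without 16 h and 18 h (0.109).

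**Figure D4:**
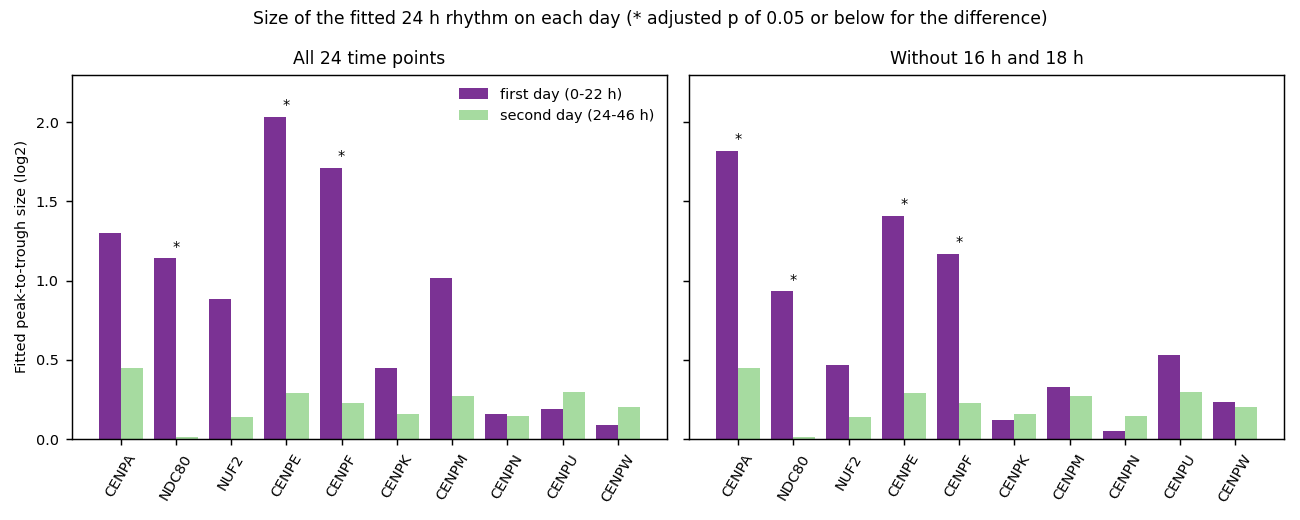
Fitted peak-to-trough size (log2) of the 24 h rhythm of each of the 10 genes on the first day (0 h to 22 h) and the second day (24 h to 46 h), over all 24 time points (left) and without 16 h and 18 h (right). Bars start at 0. An asterisk marks a limma adjusted p of 0.05 or below for the interaction of day with size and peak time together. NDC80, with 1.14 and 0.013, is marked on the left.

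At 16 h and 18 h the 10 genes departed from their neighbours in both directions. The deviation is the mean distance of log2(FPKM + 1) at the 2 hours from a line drawn through 14 h and 20 h, and it was set beside the same measure at 16 other pairs of consecutive time points. CENPE had 11.8 FPKM at 14 h, then 36.8 FPKM and 46.8 FPKM in the next 2 libraries, and had 20.3 FPKM at 20 h, a deviation of 1.36 against -0.71 to 0.15 at the other pairs. CENPF had 49.1, 117, 142 and 61.1 FPKM from 14 h to 20 h, a deviation of 1.22 against -0.65 to 0.20. CENPM, in the opposite direction, had 23.3, 5.59, 5.19 and 20.4 FPKM, a deviation of -1.84 against -0.47 to 0.53.

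CENPK deviated by 0.86, NUF2 by 0.77, CENPU by 0.63, NDC80 by 0.53 and CENPN by 0.38, each above its own range at the other pairs. CENPW at -0.24 and CENPA at -0.56 lay within theirs. The low end of the CENPA range, -0.74, came from the pair of 2 h and 4 h, which holds its minimum. Thus 2 of 10 genes were at least 2-fold above their flanks, against 8.94% of all genes, and 1 was at least 2-fold below, against 7.11%. All genes together had a median deviation of 0.14 in the deposited values, of 0.02 after median centring of the libraries and of -0.06 under upper-quartile scaling. No deviation of the 10 genes changed sign under these scalings. Upper-quartile scaling put CENPF at 0.98, just under 2-fold, and CENPE at 1.13.

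Base composition and length moved with these deviations. The GC content of the longest transcript was 32.9% for CENPK, 35.3% for CENPE, 38.3% for CENPU, 38.8% for NUF2, 40.1% for NDC80 and 40.8% for CENPF, which were all above their flanks. It was 61.4% for CENPM, which was farthest below, and 47.8% for CENPA. CENPN with 49.1% lay above its flanks and CENPW with 37.9% below, against this order. CENPF and CENPE also had the longest transcripts of the 10, 10307 and 8612 bases, and CENPW and CENPM the shortest, 750 and 1002 bases.

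Over all genes with a known transcript, divided into 5 equal groups by GC content where medians are given, Spearman's rho of the deviation was -0.56 with GC content and 0.30 with length, across genes, which are not independent. The median deviation was 0.54 in the group with the lowest GC content and -0.53 in that with the highest. CENPE at 1.36, CENPF at 1.22 and CENPM at -1.84 lay beyond the medians of their own groups, and NDC80 at 0.53 lay at that of the lowest. The part of base composition or length in the values of the 10 genes was not tested.

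**Figure D5:**
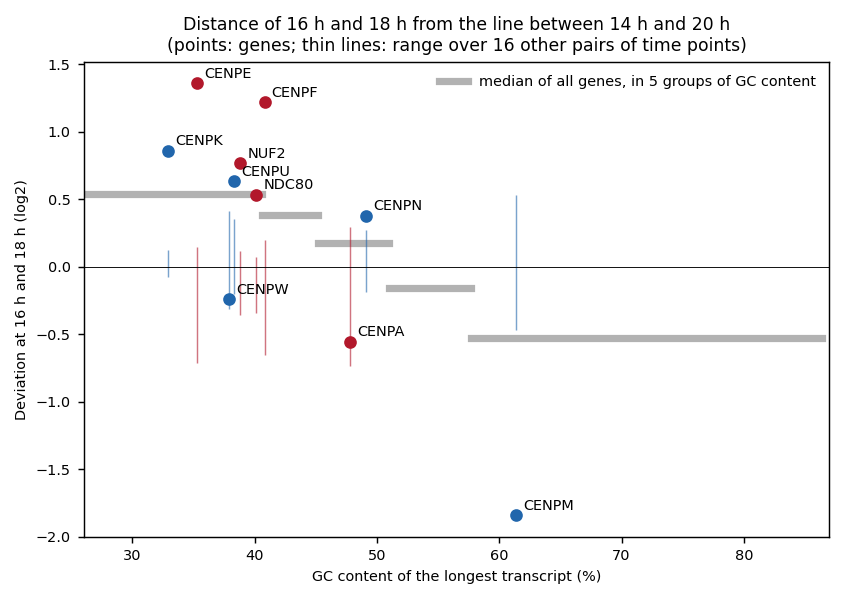
Deviation at 16 h and 18 h from the line between 14 h and 20 h (log2, vertical axis) of the 10 genes against the GC content of the longest transcript (%, horizontal axis), with thin lines for the range at 16 other pairs of time points and grey bars for the median of all genes in 5 groups of GC content. CENPE and CENPF lie highest, at 1.36 and 1.22, and CENPM lowest, at -1.84.

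The other genes of the pathway were taken from 5 lists of 45 genes in all, each of which was in the table. Over 24 time points 9 of the 45 were called by JTK, and 7 over 22, beside 13% and 14.7% of all genes. Among the 11 other CCAN subunits, 2 were called over 24 time points and 3 over 22. CENPT, the histone-fold partner of CENPW, peaked at 8 h and CENPQ, of the same CCAN complex as CENPU, at 20 h, each with an adjusted permutation p of 0.00259. CENPC, which links CENPA nucleosomes to the outer layer, had 0.0716 with a peak at 18 h, and CENPX 0.139.

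Of 7 genes for the deposition of the CENPA protein, 2 were called over both sets of time points. Among them the histone chaperone gene RBBP7 peaked at 6 h (adjusted permutation p = 0.0249). The loading chaperone gene HJURP, with a peak at 16 h, had 0.106, and RBBP4 had 0.328. CENPA itself stood at 0.165 on this scale.

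Of 8 other subunits of the KNL1, MIS12 and NDC80 complexes, 2 were called over both sets. ZWINT, which binds KNL1, peaked at 6 h (adjusted permutation p = 0.00831), with 96.9 FPKM at 0 h and 216 FPKM at 6 h as its extremes over 22 time points. DSN1 of the MIS12 complex peaked at 4 h (0.0152), PMF1 had 0.0588 and KNL1 0.212. SPC24 and SPC25, which complete the complex of NDC80 and NUF2, had 0.916 and 0.793. SPC24 was higher on the second day by 0.37 (limma adjusted p = 0.0163), or by 0.35 without the pairs of 16 h and 18 h (0.0291). NUF2 differed by -0.04 over 12 pairs (limma adjusted p = 0.835) and by 0.12 without those pairs (0.128). For NDC80 the values were 0.195 (limma adjusted p = 0.307) and 0.35 (0.0155).

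None of 7 genes of the SKA and RZZ complexes was called by JTK at an adjusted or unadjusted p of 0.05 or below, or by the limma rhythm test. The nearest was SKA3 with an adjusted permutation p of 0.226, followed by ZW10 at 0.558, KNTC1 at 0.631 and SPDL1 at 0.722. Of these 7, 4 were at least 2-fold above their flanks at 16 h and 18 h, with SKA3 at 2.35. The same count was 1 of 11 for the other CCAN subunits, 1 of 7 for the deposition genes, and 0 of 8 and 0 of 12 for the remaining lists, beside 8.94% of all genes.

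Among 12 genes of the spindle checkpoint and the chromosomal passenger complex, JTK called 3 over 24 time points, TTK at 18 h (adjusted permutation p = 0.0298), SGO2 at 18 h (0.0455) and BUB1B at 16 h (0.0497), with BUB1 next at 0.0652. Without 16 h and 18 h it called 0 of the 12, with 6 at an unadjusted p of 0.05 or below, while limma called 3. On the second day 2 of the 45 genes were higher and 4 lower at matched hours by limma, beside 9.49% and 5.18% of all genes. Without the pairs of 16 h and 18 h, 7 were higher and 3 lower, beside 12.6% and 7.02%. The rhythm differed between the days in 8 of the 45, of which 4 were checkpoint or passenger genes, beside 5.82% of all genes. It differed in 7 of the 45 without 16 h and 18 h, beside 4.84%. The median second-day difference was -0.01 over the 45 genes, 0.01 over the 10 and -0.01 over all genes.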

How the data were processed

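RNA of 24 K562 time points was measured by sequencing, 1 library each. The authors aligned reads with STAR and deposited FPKM values from Cufflinks2 and Cuffnorm, with GRCh37 named in the submitters' processing notes. Exact versions and the annotation are not given in the sources used here. A second table, a score per gene and hour, was deposited as a cleaned version, and all of its 24 columns hold the same sorted values. It was used for 1 alternative. Every gene had at least 1 FPKM in at least 12 time points. FPKM values hold no read counts, so the depth is unknown and counting error cannot be given. They were used as deposited.

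JTK used 12 phases of a 24 h cosine and 100000 orderings. limma 3.58.1 (R 4.3.3) was fitted with a mean-variance trend to log2(FPKM + 1), which understates changes of low genes. All p were adjusted over 12285 genes and called at 0.05 or below. Python 3.11.15, numpy 2.4.6, pandas 2.3.3 and scipy 1.17.1 were used, and the tests were tried on simulated data. GC content and length came from GENCODE 29 (GRCh38) for 99.1% of genes, and promoters from RefSeq. The columns were matched to samples by the hour in their labels. A cycle of 24 h was assumed, and the matched hours served as pairs.

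The 10 genes, the gene lists and the tests were chosen with earlier results of these data known. Named genes are the 10, the 3 most similar to each, 5 phase references, and up to 4 of each list by the smallest JTK p, except that 2 listed genes are not reported here. SPC24 and SPC25, partners of NDC80, were named after their values were seen. Alternatives were other time points, scalings, periods, pseudocounts, filters and thresholds, the cleaned table, and each time point or pair left out.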

Additional observations from a re-analysis of the deposited data

Results flagged for a closer look

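The rhythm of NDC80 differed between the days, with a limma interaction adjusted p of 0.00683 and a smaller fitted size on the second day. The same interaction gave 0.00704 for CENPF and 0.0138 for CENPE, again with the smaller size on the second day. All 3 differences were also called without 16 h and 18 h. No group of samples was large enough to look for single libraries far from the rest of their group, since each time point is 1 library.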

How the results depend on the processing

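No called day difference, difference of rhythm size between days or deviation changed sign under any alternative. The JTK statistic and the fitted rhythm size cannot be negative, so sign says nothing about the rhythm calls. JTK called 1 of the 10 genes as reported. It called 3 without 16 h and 18 h, 3 after quantile normalization, 3 after PCHIP interpolation of 16 h and 18 h, 3 after upper-quartile scaling, 2 after median centring, and 0 without 6 h, 16 h, 18 h and 32 h (927 of all genes) or with a period of 20 h (434 of all genes, against 1602 as reported and 384 at 28 h). Leaving out 1 time point gave 0 to 2. NUF2 was called in 8 of 11 alternatives other than leaving out 1 time point, CENPE and CENPU in 3 each, CENPA and NDC80 in 2 each. limma called 1 as reported, 3 after median centring, 3 after upper-quartile scaling, 2 with the fit limited to means of 10 FPKM or more, 2 without 16 h and 18 h (2097 of all genes, against 1125), and 2 without 6 h, 16 h, 18 h and 32 h. Without the pairs of 16 h and 18 h, 3 genes were higher on the second day, against 1. At least 2-fold above the flanks were 1 after upper-quartile scaling (4.72% of all genes) and 5 at 1.5-fold (23.9%), against 2 (8.94%). Of 30 nearest genes, 10 were shared with 24 time points. Leaving out 1 pair or time point left 1 gene higher and 0 lower on the second day, and 3 to 4 with a rhythm that differed between days. The fits without 40 h and 42 h, without 0 h and 2 h, the limma fit without 6 h, 16 h, 18 h and 32 h, and the interaction with each time point left out were chosen after seeing the data. No paired analysis by replicate number was possible because each time point has 1 library. The cause of these changes was not tested. With single libraries and unknown depth, error of a single value cannot be given.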
